A study of Caenorhabditis elegans with 2 samples.

Results

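The nuclear genes of oxidative phosphorylation in Caenorhabditis elegans were examined for binding of the transcription factor SEM-4. They were taken by symbol from the protein-coding genes on nuclear chromosomes of the Ensembl annotation (genome build WBcel235, also called ce11). The prefixes were nuo-, nduf-, ndua- and ndub- for complex I, sdha-, sdhb- and sdhd- for complex II, ucr- for complex III, cyc- for cytochromes c and c1, cox- for complex IV, and atp-, asb- and asg- for complex V. The genes gas-1, lpd-5, mev-1 and isp-1, which carry other symbols, were added. This gave 67 of 19973 nuclear protein-coding genes. SEM-4, a zinc-finger protein of the Spalt family, had been profiled by chromatin immunoprecipitation and sequencing (ChIP-seq) with an eGFP tag in whole L2 larvae. Both samples were biological replicates of 1 group of mixed-sex animals of strain OP57, of unknown age. This strain carries the unc-119 allele ed3 on chromosome III and wgIs57, an integrated transgene of tagged sem-4, so all animals sampled were transgenic. No second condition was included, and the origin of the replicates' animals is not described further.

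Oxidative phosphorylation takes place in the inner mitochondrial membrane. Complexes I and II pass electrons from NADH and succinate to ubiquinone, complex III passes them to cytochrome c, and complex IV passes them to oxygen. Complex V, the ATP synthase, uses the proton gradient built by complexes I, III and IV to make ATP. Most subunits are encoded in the nucleus and imported, while a few core subunits are encoded by mitochondrial DNA, so that the complexes draw on both genomes. Nearly all cells of a larva need these genes, and material from whole larvae does not tell in which cells SEM-4 was bound.

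The measurement was the position and signal of peaks in lists made by the authors, where signal is the value per peak in the list's own scale. A relaxed list of 30000 peaks had been called on the pooled reads of both replicates, and 2490 of these peaks formed a thresholded list, here called reproducible. These were exactly the 2490 peaks of highest pooled signal, from 40.32 upwards, so the name does not require a high rank in each replicate. The authors' label for the relaxed pooled list is peaks and background. A summit found only in that list, below the threshold, therefore need not mark binding. The median signal was 13.1 in the pooled list and 57.8 in the reproducible list. The lists hold no read counts, so depth is unknown and no counting error belongs to a single peak. A gene was counted when a summit lay between 1000 bp upstream and 200 bp downstream of any of its annotated transcript starts, here called its promoter window.

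Reproducible SEM-4 summits lay in the promoter windows of 26 of the 67 genes, or 38.8% (exact binomial 95% interval 27.1 to 51.5, counting error only). Among all nuclear protein-coding genes 1739 of 19973 did so, or 8.71%. A pooled summit of any signal lay in the windows of 53 of the 67, against 7675 of 19973 genes, or 38.4%. Among genes with any pooled summit, 26 of the 53 were reproducible (49.1%), against 1739 of 7675 genes, or 22.7%. The ratio of the shares was 4.46 over all genes and 2.17 over genes with any pooled summit. The other 27 of the 53 held summits below the threshold only, and 14 genes held none. The genes are not independent draws, since neighbours can share a summit, and no test was made of these shares. Whether other factors or the control library give peaks at the same promoters was not analysed here.

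The count varied from complex to complex. Complex V had 7 of 9 genes with a reproducible summit (77.8%, exact interval 40.0 to 97.2) and the subunits of complex IV had 5 of 7 (71.4%, 29.0 to 96.3). All 16 genes of these groups had some pooled summit, and 12 had a reproducible one. Complex I had 6 of 29 (20.7%, 7.99 to 39.7), with 16 genes below the threshold and 7 without a summit. Complex III had 3 of 7, complex II had 2 of 5 and the cytochrome c genes had 1 of 2. Of the 8 biogenesis factors of complex IV, which insert its cofactors or help assemble it, 2 had a reproducible summit and 5 had no summit at all. The intervals of the small groups are wide and overlap one another, apart from those of complexes I and V. These 2 lie side by side, ending at 39.7 and beginning at 40.0. With the top peaks of either replicate alone, complex V had 6 of 9 genes and complex I had 6 of 29. No difference between complexes was tested.

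**Figure D1:**
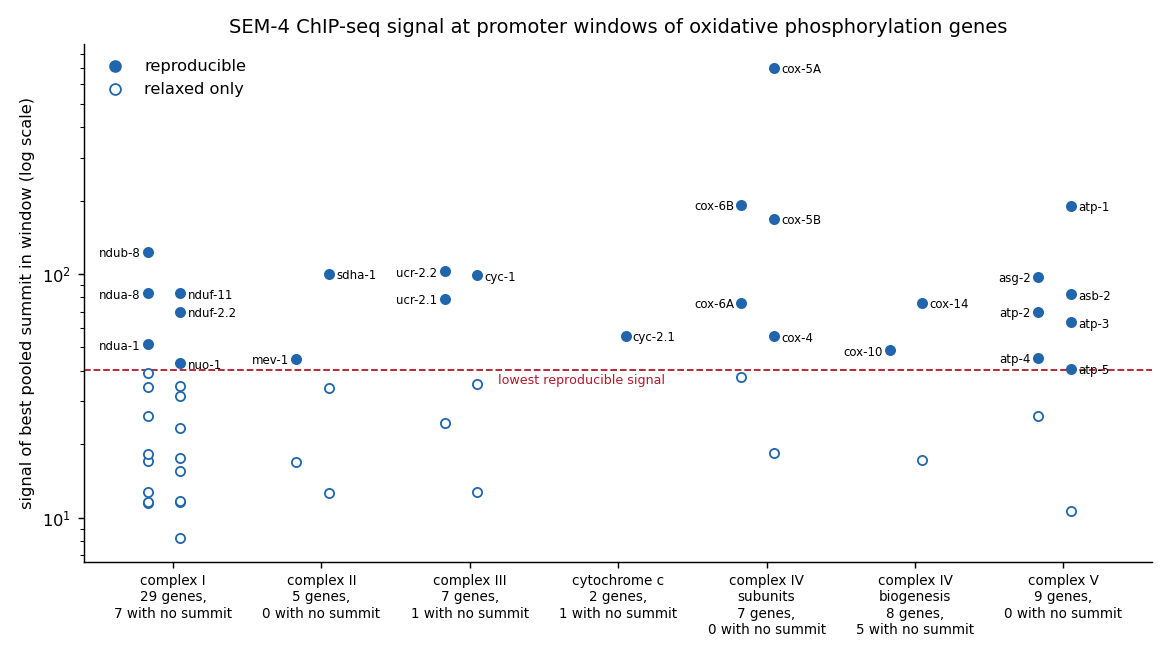
Each point is 1 gene with a pooled SEM-4 summit in its promoter window, grouped by complex along the horizontal axis, with the signal of its best summit on a logarithmic vertical axis. Filled points are the 26 reproducible summits and open points the 27 below the threshold of 40.32 (dashed line). The gene cox-5A stands alone at 702.5, and complex I has most of its points below the line.

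The bases at the summits, with 50 bp on either side, show what lay at these promoters. They are printed on build WBcel235 in the direction of transcription. The windows of ndub-8, sdha-1, ucr-2.2, cyc-2.1, cox-5A and cox-14 are those of the strongest summit of their group, and asg-2 has the second strongest of complex V. Those of nuo-1, mev-1 and asb-2 are shown for their long runs of shared letters. Capitals mark 4 hexamers or their reverse complements, namely AGACGC, in 10 of the 26 reproducible windows, and CGAGAC, in 9, together with CGTCTC, in 9, and GCGAGA, in 9. No other hexamers were found in more of the 26 windows, and these 4 were chosen after the values were seen.
ndub-8 (chrII:13872636-13872736, plus strand): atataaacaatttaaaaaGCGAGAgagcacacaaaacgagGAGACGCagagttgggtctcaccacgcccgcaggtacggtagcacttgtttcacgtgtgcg
nuo-1 (chrII:11097503-11097603, plus strand): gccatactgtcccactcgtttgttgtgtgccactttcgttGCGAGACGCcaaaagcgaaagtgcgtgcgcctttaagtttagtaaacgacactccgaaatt
sdha-1 (chrX:8546151-8546251, minus strand): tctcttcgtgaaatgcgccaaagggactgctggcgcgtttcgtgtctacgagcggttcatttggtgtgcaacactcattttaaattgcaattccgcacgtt
mev-1 (chrIII:10334104-10334204, plus strand): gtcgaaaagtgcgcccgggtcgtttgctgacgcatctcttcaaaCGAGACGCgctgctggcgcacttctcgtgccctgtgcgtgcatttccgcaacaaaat
ucr-2.2 (chrX:15173639-15173739, plus strand): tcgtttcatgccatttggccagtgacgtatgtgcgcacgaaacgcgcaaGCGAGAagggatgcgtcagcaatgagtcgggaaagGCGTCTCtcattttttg
cyc-2.1 (chrIV:4748580-4748680, minus strand): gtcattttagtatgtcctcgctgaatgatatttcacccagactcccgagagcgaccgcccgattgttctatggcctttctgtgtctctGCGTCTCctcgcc
cox-5A (chrIII:12905148-12905248, plus strand): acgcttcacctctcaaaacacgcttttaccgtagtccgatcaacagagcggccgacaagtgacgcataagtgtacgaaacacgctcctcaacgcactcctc
cox-14 (chrIII:10218725-10218825, plus strand): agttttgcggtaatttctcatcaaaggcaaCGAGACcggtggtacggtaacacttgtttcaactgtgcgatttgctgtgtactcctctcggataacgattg
asb-2 (chrX:4469449-4469549, plus strand): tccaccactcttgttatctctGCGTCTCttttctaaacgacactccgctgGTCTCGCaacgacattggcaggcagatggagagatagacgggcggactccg
asg-2 (chrX:6841011-6841111, plus strand): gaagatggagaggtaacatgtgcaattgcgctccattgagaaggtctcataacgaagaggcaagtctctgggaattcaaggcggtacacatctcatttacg

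The hexamers overlap one another, and the run GCGAGACGC in the nuo-1 window holds all 4, counting both strands. At least 1 of them lay in 17 of the 26 reproducible windows (65.4%). In the 1376 reproducible promoter windows of all genes the share was 34.7%, and in the 8465 promoter windows of summits below the threshold it was 14.4%. Among the 27 member windows below the threshold, 2 held one (7.41%). The hexamers were picked because they were frequent in these 26 windows, so the first share is a description and supports nothing.

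Base composition moved with the hexamers. The median GC content of the 26 windows was 51.0% (range 33.7 to 72.3), against 46.5% for all reproducible promoter windows and 36.6% for those below the threshold. The 27 member windows below the threshold had a median of 35.6%. Among windows of 45 to 55% GC, a hexamer was found in 11 of 16 member windows (68.8%), in 40.7% of the reproducible windows and in 29.0% of those below the threshold. None of the 4 member windows under 45% GC held one, against 22.7% of the reproducible windows and 10.35% of those below the threshold. All 6 member windows at 55% or more did, against 48.8% and 36.3%. Member windows below the threshold held one in 2 of 19 cases under 45% GC. At 45 to 55% GC the count was 0 of 6, and at 55% or more it was 0 of 2. The hexamers were picked for being frequent in the 26 windows, so the shares of these windows in each GC range are raised by that choice and support nothing. The part of base composition in the share of hexamers was not tested.

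**Figure D2:**
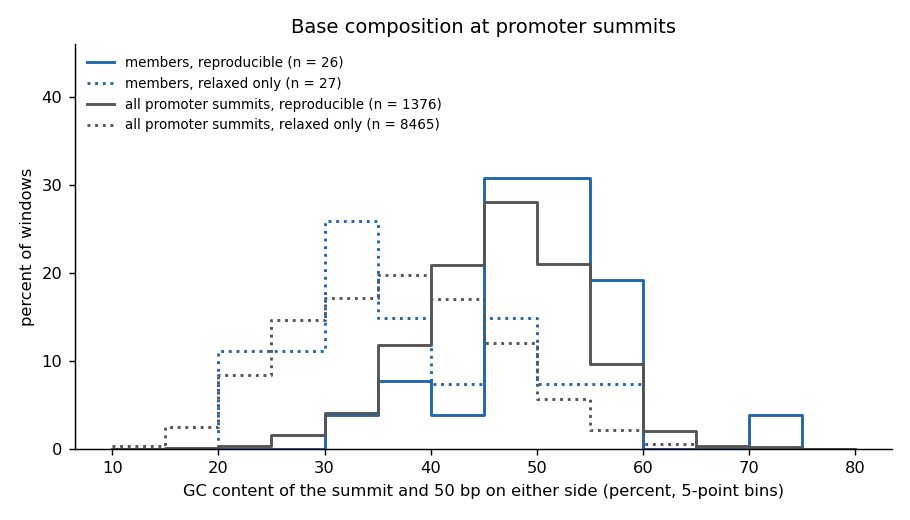
The horizontal axis gives the GC content of each promoter summit with 50 bp on either side, in bins of 5 percentage points, and the vertical axis the percent of windows in each bin. Blue lines are the oxidative phosphorylation genes and grey lines all promoter summits, solid for reproducible summits and dotted for those below the threshold. The solid lines are shifted to the right of the dotted lines, with medians of 51.0% and 46.5% against 35.6% and 36.6%.

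Motifs named for other reasons were not frequent. TTGTCT or TTGTGT, the form described for SEM-4, lay on either strand in 4 of the 26 windows (15.4%), against 18.1% of all reproducible promoter windows and 14.8% of those below the threshold. The AT-rich ATATT, described for the vertebrate homologue SALL4, lay in 2 of 26 (7.69%), against 13.7% and 30.1%. GAGAGA lay in 3 of 26 (11.5%), against 27.3% and 12.6%. CTGCGTC was also found in 3, against 167 of the 1376 reproducible windows and 3.05% of those below the threshold. The E-box CACGTG lay in 1 (3.85%, against 4.51% and 2.06%) and the GATA-type TGATAA in 1 (3.85%, against 3.92% and 8.61%). CTGCGTC shares the letters GCGTC with the reverse complement of AGACGC. With 26 windows, 1 window is 3.85%, so none of the shares near those of all reproducible windows can be told from them.

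Complex IV held the strongest summit of all the genes. It lay 293 bp upstream of cox-5A, a nuclear subunit of cytochrome c oxidase, with a pooled signal of 702.5, the fourth highest of all 30000 peaks, and with 470.7 and 236 in replicates 1 and 2. Both replicates ranked it 5. The subunit gene cox-6B followed with 191.7 (rank 68), and with 116.2 and 64.98 in the replicates, 154 bp upstream of one of its starts. That summit lay in an intron of the long annotated cox-6B gene and was nearer, at 100 bp, to the start of Y71H2AM.20. It also fell in the window of nduc-2, a complex I subunit gene outside the symbol rule.

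The remaining complex IV subunits spanned a wide range. For cox-5B the signal was 168.1, at 26 bp upstream, with 120.7 in replicate 1 and 47.47 in replicate 2, and its window was the only one of the 26 with more than 1 reproducible summit. For cox-6A it was 76.24, with 53.47 and 23.15, and the summit stood 806 bp upstream, near the outer end of the window. For cox-4 it was 55.44, with 34.39 and 19.82, at 481 bp. All 5 genes had the higher signal in replicate 1, whose scale runs higher than that of replicate 2. The subunit genes cox-6C, with 37.65 (rank 2822), and cox-7C, with 18.44, stayed below the threshold.

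Among the biogenesis factors of complex IV, both reproducible summits were nearer to another gene. The assembly factor gene cox-14 had a signal of 75.99, with 57.79 and 19.35 in the replicates, 167 bp upstream, in a summit nearer to rde-4 (129 bp), an RNA interference gene. The gene cox-10, for the enzyme that farnesylates haem for the oxidase, had 48.67, with 37.13 and 20.33, at 157 bp, in a summit nearer to Y38E10A.33 (151 bp). Neither gene was counted when each summit was given to the nearest start alone. The gene cox-16 had 17.2. The copper-handling factors cox-11, cox-17 and cox-19, the haem A synthase gene cox-15 and the insertase gene cox-18 had no pooled summit in their windows. For cox-11, the closest summit of the reproducible list lay 3646 bp from a start, beside the ribosomal protein gene rpl-12.

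Among the ATP synthase genes of the symbol rule, summits lay in the promoter windows of genes for the catalytic head and for the peripheral stalk alike. Subunit genes outside the rule were counted separately. The gene atp-1 for subunit alpha had a signal of 190 (rank 70), with 125.6 and 67.42 in replicates 1 and 2, at 21 bp upstream, in a summit shared with mcrs-1. The gene atp-2 for subunit beta had 69.89, with 34.8 and 35.39, at 260 bp, in a summit shared with C34E10.10 and C34E10.12. Both genes thus had a summit, while the signal of atp-1 was the higher in the pooled list and in each replicate. The gene atp-3, for the subunit that confers oligomycin sensitivity, had 63.19, with 33.29 and 25.89, in a summit shared with F27C1.2. That summit lay inside the 5' UTR of atp-3, 37 bp upstream of an internal start and as far inside the outer end of the gene.

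Subunits of the membrane part and of the peripheral stalk followed. The gene asg-2 for subunit g had 97.38, with 56.55 and 43.44, at 197 bp, in a summit shared with the glutamate receptor gene glr-6. The gene asb-2 for subunit b had 82.41, with 38.55 and 42.32, at 267 bp, in a summit shared with no other gene. The weakest were atp-4, the gene for coupling factor 6, with 45.36 at 444 bp, within the 3' UTR of alh-4, and atp-5, for subunit d, with 40.82 at 314 bp. Their replicate signals were 33.94 and 11.75 for atp-4, and 18.74 and 22.57 for atp-5. The atp-5 summit lay 5 bp from the start of lmtr-3 and ranked 2430, near the end of the reproducible list.

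Where a subunit is encoded by more than 1 member, the copies differed in signal in the sets given here, which were chosen after their values were seen. For subunit b, asb-2 had 82.41 and asb-1, the form known for its germline role, had 10.68. For subunit g, asg-2 had 97.38 and asg-1 had 26. For the flavoprotein subunit of succinate dehydrogenase, sdha-1 had 100.2 and sdha-2 had 12.57. For the second core protein of complex III, ucr-2.2 had 102.5 and ucr-2.1 had 78.98, while ucr-2.3 had no summit. Of the cytochrome c genes, cyc-2.1 had 55.86 and cyc-2.2 had none. The complex I core subunit that binds near the quinone site is encoded by nduf-2.2, with 69.92, and by gas-1, with 26.09. In each of these 6 sets at least 1 copy was reproducible and at least 1 was not. Peaks were mapped by the authors with a method not given in the sources used here, so how reads shared by similar copies were treated is unknown.

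In complex III and cytochrome c, the reproducible summits lay at genes for some of the haem proteins and core proteins. The ucr-2.2 summit, 215 bp upstream, had 60.19 in replicate 1 and 43.8 in replicate 2. That of ucr-2.1, 244 bp upstream, had 52.8 and 24.75 and was nearer to nmat-1 (142 bp), a gene for an enzyme of NAD synthesis. The gene cyc-1 for cytochrome c1 had 98.71, with 73.14 and 27.64, at 293 bp. The gene cyc-2.1 for cytochrome c had 31.87 and 22.67 at 181 bp, inside an intron of its own longer transcript and within reach of a tctn-1 start. Below the threshold lay ucr-1, for the other core protein, with 35.22, ucr-11 with 24.43 at 89 bp downstream in an intron, and isp-1, for the Rieske iron-sulphur protein, with 12.68.

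In complex II the summits lay at sdha-1 and mev-1, the latter for the cytochrome b subunit that anchors the enzyme. The sdha-1 summit, 180 bp upstream within a small nucleolar RNA gene (D2021.6), had 58.49 and 42.23 in the replicates. That of mev-1, 123 bp upstream, had a pooled signal of 44.87, with 34.35 and 13.68, and was shared with jmjd-4 at 136 bp. Replicate 2 alone ranked the mev-1 summit only 4001. The other anchor gene, sdhd-1, had 34.17, and the iron-sulphur subunit gene sdhb-1 had 16.93, both below the threshold.

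Complex I had 6 reproducible genes, of which 4 encode accessory subunits. These were ndub-8 with 122.9 (71.67 and 51.13 in the replicates), nduf-11 with 83.17 (53.01 and 29.29), ndua-8 with 83.12 (50.95 and 32.49) and ndua-1 with 51.51 (30.53 and 20.9). Their summits stood 183, 170, 256 and 323 bp upstream, and those of nduf-11 and ndua-1 were shared with no other gene. The ndub-8 summit was shared with cup-14, and the ndua-8 summit with rbc-2 and Y54F10AM.15, both of which started nearer to it. The core subunit gene nduf-2.2 had 69.92 (44.17 and 24.95), at 831 bp, in a non-coding RNA gene and nearer to dlc-1. The gene nuo-1, for the subunit that oxidises NADH, had 43.05 at 284 bp, shared with the ribosomal protein gene rpl-36.A. Its replicate signals of 15.69 and 27.71 ranked 6319 and 1035, the largest gap in rank among the 26.

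The other genes of complex I, core subunits among them, lay below the threshold or had no summit. The closest to it was ndua-2, an accessory subunit gene, with 39.21 and rank 2622, whose summit ranked in the top 2490 of replicate 1, with a signal of 30.29, but had only 6.55 in replicate 2. Next came nuo-2 with 34.68, nduf-7 with 34.28 and nduf-9 with 31.42. The genes gas-1, ndua-13, ndub-5, nduf-6, ndub-3, nuo-6, ndub-7, lpd-5, nuo-5, ndub-11, ndub-6 and nuo-3 ranged from 26.09 down to 8.25. Of these, nuo-5 encodes the largest subunit of the electron-transfer arm and had 11.56. No pooled summit was found for ndua-5, ndua-7, ndua-12, ndub-2, ndub-10, nduf-5 and nuo-4.

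Taken in order of signal, the 26 best summits had a median of 77.6 (quartiles 55.6 and 99.8), against 61.7 (48.9 and 86.6) for all 1739 genes. Of the members 4 stood in the pooled top 100, 9 in the top 500 and 17 in the top 1000, where 92, 423 and 815 genes of all kinds had their best summit. Just inside the threshold were atp-5 with 40.82 and nuo-1 with 43.05, and just outside were ndua-2 with 39.21 and cox-6C with 37.65. The 26 summits were all distinct. By chromosome, a reproducible summit was found for 5 of 6 members on X (9.67% of all genes there), 8 of 14 on III (13.3%) and 3 of 6 on V (6.03%). The counts were 4 of 11 on II (7.45% of all genes), 5 of 20 on I (10.7%) and 1 of 10 on IV (7.83%).

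The summits lay in a narrow range upstream. Measured from the nearest annotated start, all 26 summits were placed upstream, at a median of 229.5 bp. For all 1739 genes the median was 248 bp, and 96.2% lay upstream. The summits of atp-3, cyc-2.1 and cox-6B lay inside their genes, so they were upstream of an internal start only. That of atp-3 lay 37 bp from both an internal start and the outer end of the gene, and this tie was counted as upstream. Within 350 bp upstream lay 22 of the 26 (84.6%), against 62.9% for all 1739, and the other 4 were cox-4, atp-4, cox-6A and nduf-2.2. By class, 19 summits were intergenic, 3 lay in exons of non-coding genes, 2 in introns, 1 in a 5' UTR, 1 in a 3' UTR and none in coding sequence. In 15 cases (57.7%) the summit also lay in the window of another gene, against 48.0% for all 1739, and in 19 cases the member had the nearest start. Counting only summits shared with no other gene left 11 of 67 members (16.4%), against 904 of all genes (4.53%).

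**Figure D3:**
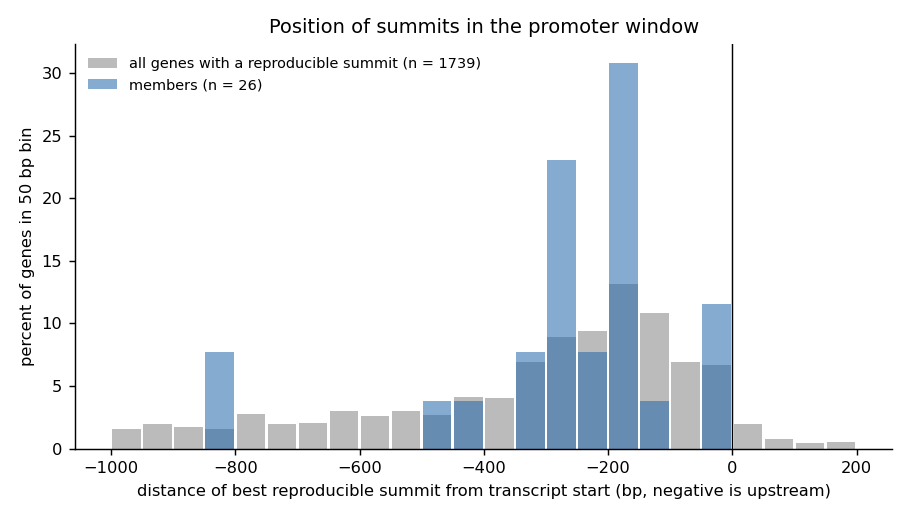
The horizontal axis is the distance from the transcript start to the best reproducible summit in bp, with negative values upstream, and the vertical axis is the percent of genes in bins of 50 bp. Blue bars are the 26 oxidative phosphorylation genes and grey bars the 1739 genes with a reproducible summit. The blue bars are all upstream of the nearest annotated start, with a tie at atp-3 counted as upstream, and 84.6% of the genes are within 350 bp of it.

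The replicates' own lists, of 30000 peaks each, held all 26 summits. In replicate 1 the median rank was 566 and in replicate 2 it was 1038. Of the 26, 22 ranked in the top 2490 of both (84.6%), against 877 of the 1376 reproducible promoter summits (63.7%). The exceptions were nuo-1 and atp-5, which fell beyond that rank in replicate 1, and mev-1 and atp-4, which did so in replicate 2. The signal in replicate 1 divided by that in replicate 2 had a median of 1.75 (range 0.566 to 2.99), against 1.51 over the 1376 summits. The 26 are the best summit of each gene, whereas the 1376 also include weaker summits of the same genes. Both comparisons thus set unlike sets side by side. Of the 26, only nuo-1, atp-5, asb-2 and atp-2 had the higher value in replicate 2. Across the 26 summits Spearman's rho of the replicate signals was 0.70 and Pearson's r of log2 signal was 0.81. These points share their libraries and were picked by pooled signal, so both describe this set only. The pooled list was called on the reads of these same replicates, and presence in both is partly given by that.

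**Figure D4:**
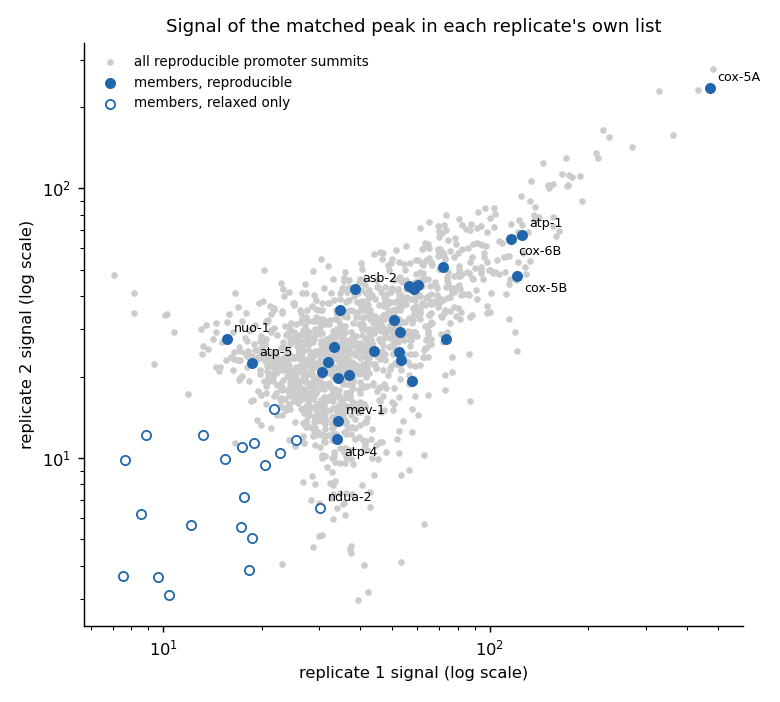
Each point is a summit, with its signal in replicate 1 on the horizontal and in replicate 2 on the vertical axis, both logarithmic. Grey points are the reproducible promoter summits found in both lists, filled blue points the 26 members with a reproducible summit, and open blue points the members below the threshold that were found in both lists. The gene cox-5A lies at the upper end with 470.7 and 236, and nuo-1, with 15.69 and 27.71, lies at the left edge of the filled points.

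Subunits that the symbol rule missed were counted separately. Of 6 other ATP synthase subunit genes, 3 had a reproducible summit, namely R04F11.2 with 69.87, Y82E9BR.3 with 56.13 and F58F12.1 with 51.57. R53.4, at 39.91, was just below the threshold, hpo-18 had 18.9, and Y69A2AR.18 had no summit. Of 10 complex I subunit genes found by their RefSeq product, a list added after values were seen, 3 were reproducible: nduc-2 in the summit shared with cox-6B, nduv-3 with 51.51 and ndus-8 with 50.56. The 12 protein genes of mitochondrial DNA could not be compared, since no list held a peak on that sequence.

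Pathways on either side of the respiratory chain were counted in the same way. Among 19 genes of the tricarboxylic acid cycle and pyruvate dehydrogenase, which supply its electrons, 9 had a reproducible summit (47.4%). The leading ones were dld-1, for the shared dihydrolipoamide dehydrogenase, with 153.5, sucl-1 for a succinyl-CoA ligase subunit with 84.57, and aco-2 for mitochondrial aconitase with 79.77. Glycolysis, in the cytosol, had 4 of 18 (22.2%), led by hxk-2 with 73.85. Of the adenine nucleotide carriers, which exchange ATP for ADP across the inner membrane, ant-1.1 had 114 and the other 3 were not reproducible.

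The protein-making and protein-degrading machines also exceeded the 8.71% of all genes. Cytosolic ribosomal proteins had 54 of 78 (69.2%), mitochondrial ribosomal proteins 16 of 70 (22.9%) and the proteasome 11 of 33 (33.3%). The share of 38.8% for oxidative phosphorylation thus stood among those of other genes that most cells use. It was below those of the cytosolic ribosome and of the tricarboxylic acid cycle with pyruvate dehydrogenase (47.4%). It was above those of glycolysis, the mitochondrial ribosome and the proteasome. The differences between lists were not tested.

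**Figure D5:**
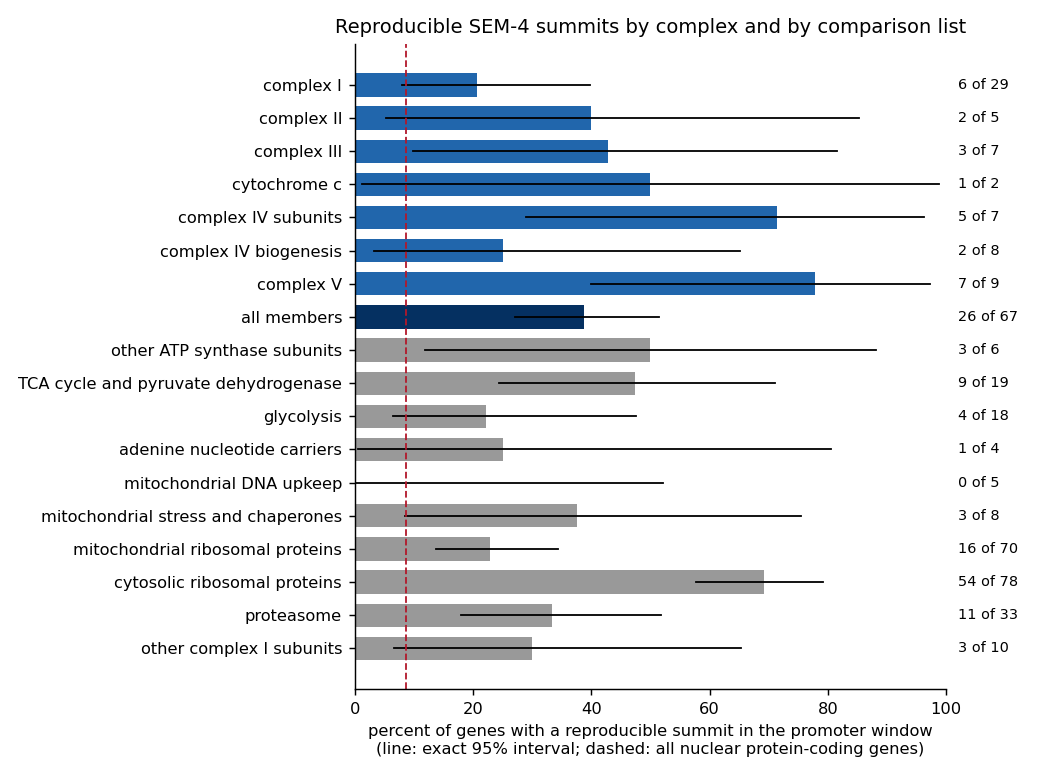
Bars give the percent of genes with a reproducible SEM-4 summit in the promoter window for each complex (blue), all 67 genes (dark blue) and the comparison lists (grey), with the numbers of genes at the right. Black lines are exact binomial 95% intervals, and the dashed line marks the 8.71% of all nuclear protein-coding genes. Complex V, the complex IV subunits and the cytosolic ribosomal proteins, at 77.8%, 71.4% and 69.2%, are the longest bars.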

How the data were processed

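The deposited peak lists on assembly ce11 were used, from 2 replicates of 1 group. Per the deposited text files, the authors called relaxed peaks for each replicate and on the pooled reads against a control, and derived the thresholded list by irreproducible discovery rate. The signal in column 7 of each list is the authors' own value per peak and is compared only within a list. The aligner, caller and threshold are not given in the sources used here.

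Summits were assigned to transcript starts of Ensembl release 115, whose chromosome lengths hold every peak. Coordinates are 1-based. Replicate peaks were matched by at least 1 bp and the nearest summit. Sequences were read from the RefSeq genome of WBcel235. Intervals are exact binomial (Clopper-Pearson, 95%) and cover counting error only. The assignment of summits to windows and the motif search were tested on simulated data, and the other steps were not. Members, comparison lists, motifs and alternatives were chosen with earlier results of these data known. Every member with a reproducible summit is described, and other members are named. The alternatives were other windows, starts, thresholds, single replicates and overlaps. The assembly ce10 lists and the control library were not analysed here. Python 3.11.15 was used with numpy 2.4.6, pandas 2.3.3, scipy 1.17.1 and matplotlib 3.10.9.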

Additional observations from a re-analysis of the deposited data

How the results depend on the processing

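Of 77 alternative values, 63 stayed within the limits set. These were a factor of 1.5 for counts and medians, and the exact 95% interval of the reported value for the share of all genes. The limits are wide for counts, so that falls from 26 members to 19 or 18 lay within them. The number of members with a reproducible summit was 24 when the window was cut to 500 bp upstream and 100 downstream, 27 when it reached 2000 bp upstream, 24 from the most upstream start only, 19 with the nearest start only and 18 with the stronger 1245 peaks, while all genes stood at 6.77%, 11.3%, 8.06%, 6.57% and 4.92%. Members thus had from 3.56 to 5.46 times the share of all genes in these settings and with single replicates (4.46 as reported). The top 2490 peaks of 1 replicate gave 24 members without replicate 1 and 25 without replicate 2, and 24 of each were among the 26. Their median signals of 28.5 and 52.8 are on each replicate's own scale. Leaving out members that share a summit with another gene gave 11, and among genes with a pooled summit alone the share was 49.1% of members and 22.7% of all genes, which lowered the ratio from 4.46 to 2.17. With 50% reciprocal overlap 25 of 26 were matched in both replicates, all but ucr-2.2. The cytochrome c genes fell to 0 from the most upstream start and with the stronger 1245 peaks, the complex IV biogenesis factors to 0 by nearest start and 1 with the stronger 1245 peaks, and complex II to 1 with the stronger 1245 peaks and 1 without replicate 1. The cause was not tested. With 2 replicates, unknown depth and 1 group, no error could be given for a single signal.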

Other observations

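Genes that maintain or guard mitochondria gave mixed counts, which were not tested against those of the respiratory subunits. None of the 5 genes for mitochondrial DNA upkeep had a reproducible summit in its window (exact interval 0 to 52.2%). That interval includes the 8.71% of all nuclear protein-coding genes. The single-strand binding protein gene mtss-1 came closest with a signal of 37.02 (rank 2939), followed by the helicase gene twnk-1 with 20.68, the mitochondrial RNA polymerase gene rpom-1 with 14.87 and hmg-5 with 13.46, while the polymerase gene polg-1 had no summit. Of 8 genes for mitochondrial stress and chaperones, 3 were reproducible (37.5%, exact interval 8.52 to 75.5), and that interval also includes 8.71%. The chaperonin gene hsp-60 had 190.9 at 606 bp upstream, close to the value of atp-1. The transcription factor genes atfs-1 and dve-1, which act in the mitochondrial unfolded protein response, had 54.3 and 46.15. The chaperone gene hsp-6 had 40.2 and rank 2503, just below the threshold.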
